A study of Mus musculus with 7 samples.

Results

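The regions described here are the open chromatin regions (OCRs) of HPC7 cells that were listed in library HPC7-1 and in no other library. Peaks of 7 lists were merged into 1 OCR wherever they overlapped by at least 1 bp, and an autosomal OCR was a member when HPC7-1 had a peak in it and the other 6 lists had none. There were 16674 such OCRs among 142262 merged autosomal OCRs, and 144931 merged OCRs in all. They were 12.9% of the 129436 autosomal OCRs with an HPC7-1 peak, and each held exactly 1 HPC7-1 peak. A further 199 OCRs of this kind lay on chromosomes X and Y and were left out. The members were selected on measured values, namely which peaks were called, so their fold enrichment and width are given as a description without a test. They were set beside 10279 OCRs found in exactly 6 lists, of which 10273 included HPC7-1, and 65686 OCRs found in all 7.

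HPC7 cells are mouse hematopoietic progenitors, an established line that is cultured with stem cell factor, the ligand of Kit. The 7 libraries, HPC7-1, HPC7-2 and HPC7-4 to HPC7-8, were bulk ATAC-seq of these cells, for which the labels name no genotype, treatment or time, and the study describes them as separate culture batches of this 1 line. The deposited peak names start with VD for HPC7-1, HPC7-2 and HPC7-4 but with EtOH for the remaining 4, the sources used here do not explain this, and the libraries were taken as replicates of 1 group. The libraries served the study as a reference OCR profile of the line.

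In ATAC-seq the transposase Tn5 cuts and tags DNA that is not wrapped tightly around nucleosomes, so reads pile up at promoters, enhancers and sites held open by CTCF, a zinc finger protein that anchors chromatin loops. A peak caller lists a pile only when it stands far enough above the background of its library, so weak piles enter a list as more reads are sequenced.

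The cell line was checked against its markers. All 10 progenitor genes examined, including Kit, Gata2, Runx1 and Spi1, had an OCR of all 7 lists within 3 kb of a transcript start. This held for 2 of 5 T cell genes, 1 of 5 B cell genes, 3 of 4 stromal genes and 3 of 4 neuronal genes, and an open promoter is no measure of expression. Over all 20807 autosomal protein-coding genes it held for 13012 (62.5%), so the stromal and neuronal genes were not set apart from genes at large.

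The sequences of 8 members are shown as examples, 4 with a high fold enrichment and 4 with a motif match near a start. All are from the plus strand of mm10, named by the nearest protein-coding gene. The first 4 were among the strongest members, and the whole peak is shown, with runs of at least 8 A or T and of at least 6 C or G in capitals. The member in an intron of Slc16a5, at chr11:115465169-115465386, had the highest fold enrichment of all. The second, at chr19:26485165-26485364, was outside genes but within 3 kb of a start that is not protein-coding. The third lay in an intron of Camsap1, at chr2:25960608-25960809, and the fourth, at chr16:12777509-12777708, in an intron of a gene that is not protein-coding.
Slc16a5: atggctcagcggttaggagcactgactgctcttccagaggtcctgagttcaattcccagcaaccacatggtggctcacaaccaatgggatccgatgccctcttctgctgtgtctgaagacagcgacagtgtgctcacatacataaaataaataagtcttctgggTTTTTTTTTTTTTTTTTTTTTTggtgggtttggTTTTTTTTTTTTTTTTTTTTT
Smarca2: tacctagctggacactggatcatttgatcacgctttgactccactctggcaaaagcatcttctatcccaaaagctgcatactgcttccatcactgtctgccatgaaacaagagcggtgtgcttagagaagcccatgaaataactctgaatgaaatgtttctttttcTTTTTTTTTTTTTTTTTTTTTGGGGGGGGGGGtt
Camsap1: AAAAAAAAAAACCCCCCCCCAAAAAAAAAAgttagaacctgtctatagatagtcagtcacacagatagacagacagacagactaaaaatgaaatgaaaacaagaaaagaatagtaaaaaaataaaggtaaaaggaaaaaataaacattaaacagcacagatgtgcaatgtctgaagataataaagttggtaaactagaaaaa
Ercc4: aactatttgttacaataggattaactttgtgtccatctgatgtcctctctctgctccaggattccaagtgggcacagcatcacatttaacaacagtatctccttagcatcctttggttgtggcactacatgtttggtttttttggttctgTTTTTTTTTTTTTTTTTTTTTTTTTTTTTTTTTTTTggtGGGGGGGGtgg
The other 4 were within 3 kb of the start of a named gene and each held a motif match. They are shown as 100 bases on either side of the summit. Capitals mark matches to the motifs searched. They are an AP-1 match upstream of Peli1 at chr11:21089705-21089905, a RUNX match in an intron of Trim24 at chr6:37876558-37876758, and an E-box in introns of Gata2 at chr6:88196161-88196361 and of Kit at chr5:75638313-75638513.
Peli1: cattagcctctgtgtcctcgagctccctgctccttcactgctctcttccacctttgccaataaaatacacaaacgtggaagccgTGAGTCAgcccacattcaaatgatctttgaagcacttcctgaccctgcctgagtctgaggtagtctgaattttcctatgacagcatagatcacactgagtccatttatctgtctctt
Trim24: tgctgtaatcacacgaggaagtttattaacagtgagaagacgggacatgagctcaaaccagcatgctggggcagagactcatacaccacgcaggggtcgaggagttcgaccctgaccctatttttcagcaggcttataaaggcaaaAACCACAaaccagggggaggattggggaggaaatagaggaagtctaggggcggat
Gata2: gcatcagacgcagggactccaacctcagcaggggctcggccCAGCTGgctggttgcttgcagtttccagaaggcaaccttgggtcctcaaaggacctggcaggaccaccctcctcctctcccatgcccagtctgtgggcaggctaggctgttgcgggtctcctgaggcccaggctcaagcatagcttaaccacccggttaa
Kit: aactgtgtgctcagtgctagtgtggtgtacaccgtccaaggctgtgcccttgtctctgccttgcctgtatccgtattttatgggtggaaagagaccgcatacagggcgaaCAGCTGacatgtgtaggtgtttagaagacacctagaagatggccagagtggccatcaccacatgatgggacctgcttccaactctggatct
A match is a description of the letters, and binding was not measured here.

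By their median, the members were the weakest OCRs of HPC7-1. Fold enrichment is the number of reads at the summit divided by the background of the library, with 1 added to both. The median member had a fold enrichment of 2.43, and 5% lay below 1.97 and 5% above 3.32. The median was 4.40 for HPC7-1 peaks in OCRs of exactly 6 lists (n = 10335 peaks) and 12.7 for those in OCRs of all 7 (n = 66492 peaks). A fold enrichment of at least 3 was reached by 1889 members (11.3%), against 91.1% and 99.1% of peaks in 6 and 7 lists. Between these sets the median went up with each further list, through 2.71, 2.99, 3.28 and 3.74 for OCRs in 2, 3, 4 and 5 lists.

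**Figure D1:**
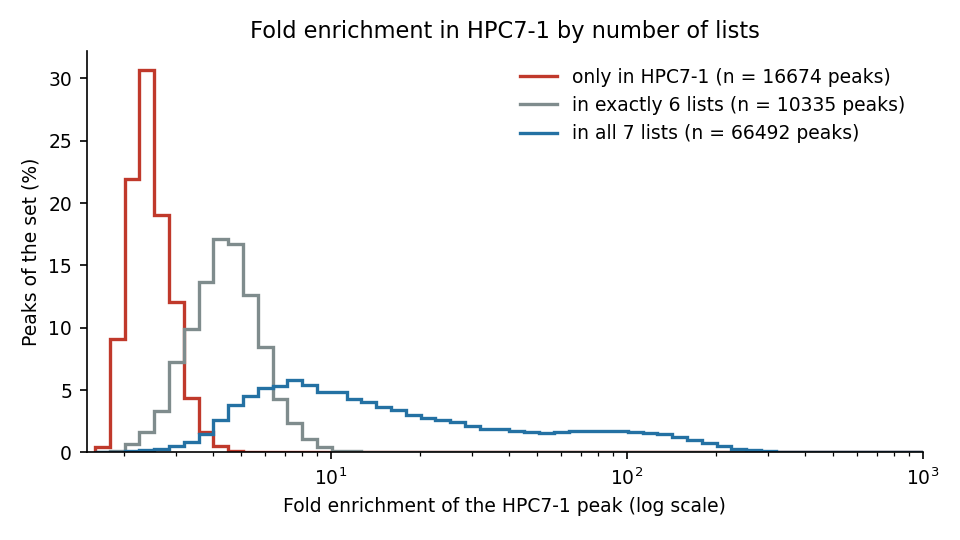
Distribution of fold enrichment (x axis, log scale) of HPC7-1 peaks, as the percentage of peaks of each set (y axis), for OCRs found only in HPC7-1, in exactly 6 lists and in all 7. The medians are 2.43, 4.40 and 12.7, and the distribution of the OCRs only in HPC7-1 is the narrowest and lies farthest to the left.

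The fold enrichments of a library rose in equal steps, from which the reads behind each peak were counted. HPC7-1 had a background of 20.4 reads, while the other libraries had between 4.44 and 7.45, and in this sense it was the deepest. The median member had 51 reads at its summit, against 93 for OCRs in 6 lists and 271 for OCRs in all 7. The member with the fewest reads, 35, lay in an intron of Foxo3, which encodes a forkhead factor, at chr10:42230632-42230839, and its fold enrichment was 1.68. The next had 36 reads, which 17 members shared, and the 2 of these named by the tie rule lay in introns of Tbc1d8 (chr1:39449744-39449955) and Plcd3 (chr11:103096792-103096991), both with a fold enrichment of 1.73.

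The lists began at different heights. The lowest fold enrichment listed was 1.68 in HPC7-1, 2.39 for HPC7-2, 2.13 for HPC7-4, 2.44 for HPC7-5, 2.35 for HPC7-6, 2.18 for HPC7-7 and 2.18 for HPC7-8. A total of 2809 members (16.8%) had a fold enrichment below every one of the other 6, which is to say below any value those lists hold. At the other end, 7892 members (47.3%) were at or above the lowest value of all 6. Whether their fold enrichment was the same in those libraries was not measured, because the lists give no value where no peak was called.

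The share of peaks found only in HPC7-1 changed steeply along this scale. Of the HPC7-1 peaks with a fold enrichment under 2, 75.1% were members (Wilson 95% interval 72.8 to 77.3%, n = 1443). The share was 31.3% between 2.5 and 3 (30.5 to 32.0%, n = 16579) and 0.855% between 4 and 5 (0.704 to 1.04%, n = 11816). At 7 or more, 8 of 51398 peaks were members. These intervals cover counting error only, since reads without molecular identifiers are not independent molecules and the regions come from 1 library.

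**Figure D2:**
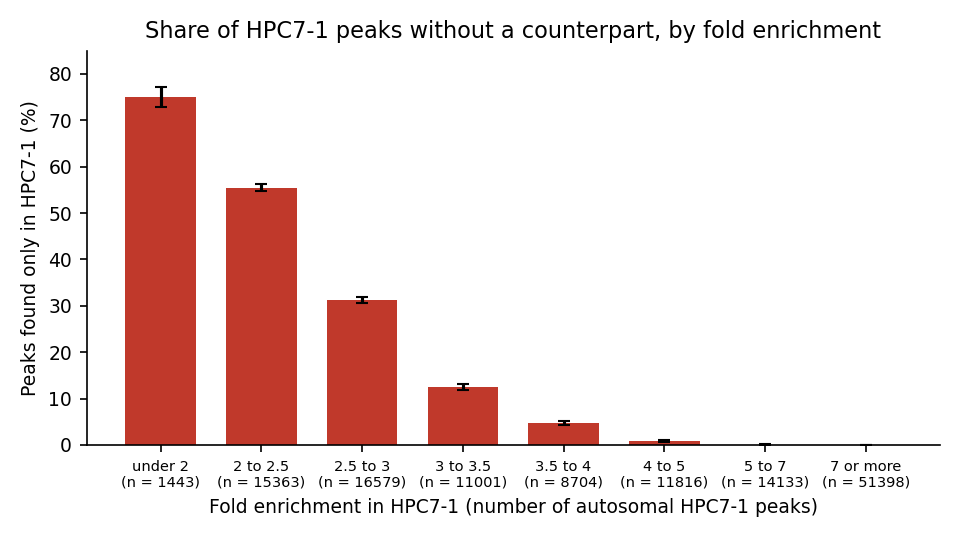
Percentage of autosomal HPC7-1 peaks that had no overlapping peak in any other list (y axis) in classes of fold enrichment (x axis, number of peaks in brackets), with Wilson 95% intervals. The bars go from 75.1% under 2 to 0.855% between 4 and 5, and are near 0 above that.

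Members were also narrow. The median width was 260 bp, against 402 bp in 6 lists and 748 bp in all 7. The narrowest width in every list was 200 bp, and 1530 members (9.18%) had exactly that width, against 0.387% and 0.0556% of the peaks in 6 and 7 lists. The widest member, 2011 bp at chr1:184724106-184726116, was intergenic, and its summit was 6294 bp from a start of Hlx, a homeobox factor. Its fold enrichment was 3.23. The −log10 q of members had a median of 6.90, and 12319 (73.9%) were at 5 or more, against 99.4% of peaks in 6 lists and 99.8% in all 7. Ranked by −log10 p among the HPC7-1 peaks, the median member stood at percentile 10.9.

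Few members lay near the edge of the 1 bp overlap rule. Just inside the rule, 57 members (0.342%) had an OCR of another list less than 50 bp away. Just outside it, 50 of 11009 OCRs of HPC7-1 and exactly 1 other list overlapped by less than 50 bp. Of those 11009 OCRs the second list was most often HPC7-8 (5683 OCRs), followed by HPC7-5 with 1565, HPC7-7 with 1458, HPC7-4 with 1303, HPC7-2 with 552 and HPC7-6 with 448. HPC7-8 also had the longest list of the other 6, with 121780 autosomal peaks. The other libraries had fewer OCRs of their own, with 479 for HPC7-2, 1267 for HPC7-4, 281 for HPC7-5, 1407 for HPC7-6, 1471 for HPC7-7 and 4026 for HPC7-8. With all lists cut to the length of the shortest, 84593 peaks ranked by −log10 p, HPC7-1 had 2022 OCRs of its own, and 10045 members had no peak of another list within 1 kb. With no such peak within 500 bp there were 12878. A rule of 50% reciprocal overlap gave 21151.

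The 9 strongest members formed a group apart. Their fold enrichments were 6.92 to 22.1, and the tenth, 361 bp wide in an intron of Kcnip1, a potassium channel partner (chr11:33658182-33658542), had 5.61. All 9 were 200 to 218 bp wide, and in 7 of them the summit was within 40 bp of an edge of the peak, which was the case for 801 of the other 16665 members. A run of 12 A or of 12 T within 100 bases of the summit occurred in 8 of these 9, against 417 of all 16674 members, 1.71% of peaks in 6 lists and 1.42% in all 7. Within the same 100 bases at least 6 T were followed directly by at least 6 G, or the reverse complement, in 5 of the 9. In that window it was seen in 25 members in all and in 0.0496% of peaks in all 7 lists. This pattern was noticed after the values were seen and was given no test.

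Each of the 9 had an identity of its own. The strongest, with 471 reads, lay in an intron of Slc16a5, of the monocarboxylate transporter family, 780 bp from its start. The second had a fold enrichment of 17.7 and lay 119704 bp from the nearest protein-coding start, that of Smarca2, an ATPase of the SWI/SNF remodelling complex. The next 2 were at 13.8 and 13.7, the first 290739 bp from a start of Cblb, a ubiquitin ligase (chr16:51740385-51740584), and the second in Camsap1, a microtubule-binding protein. A member on chr18:41365616-41365819 reached 10.5 and lay 585567 bp from a start of Prelid2. The member in an intron of Aaas, a nuclear pore component (chr15:102343477-102343678), reached 9.78, and that nearest to Gpatch8 (chr11:102566645-102566846) reached 9.08. The last 2 were at 7.77, 3782 bp from a start of Chd4, an ATPase of the NuRD complex (chr6:125092031-125092230), and at 6.92 in an intron of a gene that is not protein-coding, 332000 bp from a start of Ercc4, a subunit of a repair nuclease. The Chd4 interval was the one of the 9 without such a run within 100 bases of its summit. Farther from the summit, that peak also held at least 12 A in a row, directly after at least 6 C.

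Peaks of this shape were rare in every set. A fold enrichment of at least 6 with a width of at most 220 bp was found in 9 of 16674 members (0.0540%), 4 of 11020 peaks in 2 lists, 1, 3 and 2 peaks in 3, 4 and 5 lists, 7 of 10335 in 6 lists (0.0677%) and 22 of 66492 in all 7 (0.0331%). Of the members at 6 or more, all 9 were this narrow. Among HPC7-1 peaks in all 7 lists, 55378 had a fold enrichment of at least 6, and 22 of these (0.0397%) were no wider than 220 bp. In 6 lists it was 7 of 1269 (0.552%), and in 2 lists 4 of 8. A run of 12 A or T was found in 6 of those 22, 3 of those 7 and 3 of those 4, so strong and narrow peaks with such runs also occurred outside the members. The strongest OCRs just outside the rule, found in HPC7-1 and HPC7-8 only, had the same shape. They had fold enrichments of 27.9, 12.5 and 12.1 in HPC7-1 and of 4.95, 4.22 and 11.1 for HPC7-8, with widths of 206, 218 and 206 bp, and lay nearest to Zfp251, Lsm8 and Ptprd. The last 2 held such a run and the first did not. Among OCRs found in only 1 of the other libraries, the highest fold enrichment was 6.43 for HPC7-2, 5.21 for HPC7-4, 4.35 for HPC7-5, 6.26 for HPC7-6, 4.95 for HPC7-7 and 5.83 for HPC7-8. None of those reached the 6.92 of the ninth member.

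**Figure D3:**
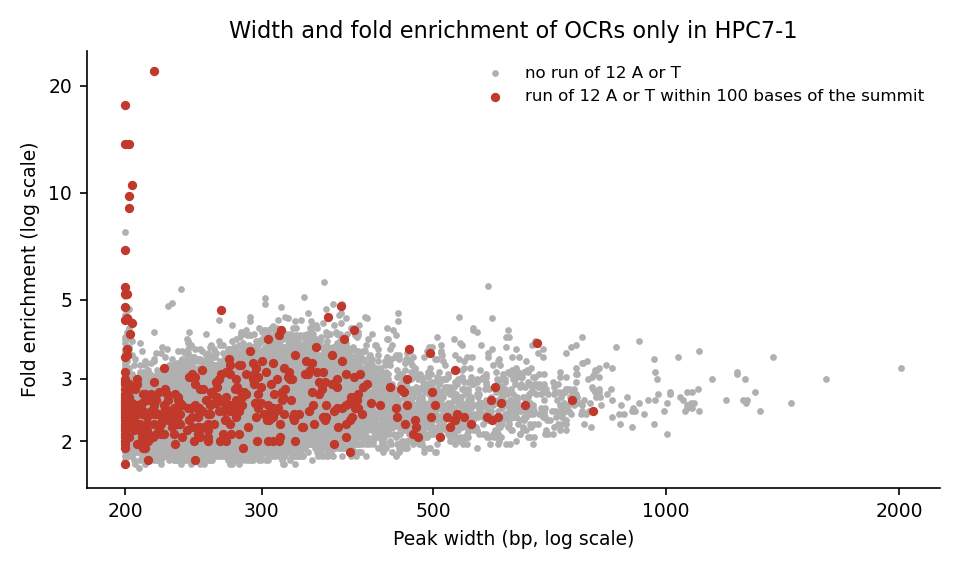
Peak width (x axis, bp, log scale) and fold enrichment (y axis, log scale) of the 16674 OCRs only in HPC7-1. Each point stands for all members with that width and fold enrichment, and red points hold at least 1 member with 12 A or T in a row within 100 bases of the summit. The 9 members above 6 stand at widths of 200 to 218 bp.

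The repeat content of members went with their height. The share of repeat-masked bases around the summit averaged 17.7% for members under a fold enrichment of 2, 24.5% between 2.5 and 3, 32.4% between 3.5 and 4 and 40.8% between 4 and 5. Over the same classes the share within promoters went from 38.9% through 29.6% and 28.7% to 22.8%. Neither relation was tested, since the classes come from the values that chose the members.

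By position, the promoter share of members lay between those of OCRs in 6 and in 7 lists, and their gene body share was near that of OCRs in 6 lists. A promoter was the 3 kb on either side of a transcript start. Of the members 5285 (31.7%, Wilson 95% interval 31.0 to 32.4%) were in promoters, 7280 (43.7%, 42.9 to 44.4%) in gene bodies and 4109 (24.6%, 24.0 to 25.3%) were intergenic. The corresponding shares were 26.0%, 44.5% and 29.5% for OCRs of 6 lists and 39.6%, 36.0% and 24.4% for OCRs of all 7.

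Few promoter members lay at the start itself. Their summit was within 100 bp of a start in 276 cases (1.66% of all members), against 1.94% in 6 lists and 12.2% in all 7. Beyond 1 kb and up to 3 kb it was the other way, with 3319 members (19.9%), 15.7% in 6 lists and 13.9% in all 7. With promoters cut to 1 kb, 12.3% of members, 10.6% of OCRs in 6 lists and 26.3% of OCRs in all 7 were promoters. The start nearest to a promoter member belonged to a protein-coding gene in 74.0% of cases, to a long noncoding RNA in 11.0% and to a pseudogene in 6.30%, against 65.6%, 14.2% and 9.76% for promoter OCRs of 6 lists and 76.6%, 11.0% and 5.32% for those of all 7.

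Members of gene bodies were mostly intronic. Their summit was in an intron in 6540 cases (89.8%), in an exon in 740 (10.2%) and in coding sequence in 243 (3.34%). For gene body OCRs of all 7 lists the exonic share was 6.96% and the coding share 1.99%. Promoter, gene body and intergenic members had nearly the same height, with median fold enrichments of 2.39, 2.43 and 2.48, and intergenic members had the highest repeat content, 27.4% against 21.9% and 20.4%.

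Members lay close to strong OCRs. The median gap to the nearest OCR of all 7 lists was 2664 bp, against 4765 bp for OCRs of 6 lists and 3581 bp between OCRs of all 7. A gap under 1 kb was found for 4560 members (27.3%), 17.6% of OCRs in 6 lists and 20.1% of OCRs in all 7, and a gap of 20 kb or more for 6.86%, 19.3% and 11.7%. Promoter members were the closest, with 38.7% under 1 kb, against 22.3% in gene bodies and 21.7% between genes. Few members touched a neighbour, as 28 had a gap under 50 bp, 47 one of 50 to 99 bp and 451 one of 100 to 149 bp. Such small gaps were rare in every set and were no trait of the members. A gap under 100 bp was found for 0.450% of members, 0.399% of OCRs in 6 lists and 0.376% of OCRs in all 7. The OCRs of 1 library alone in the other 6 libraries did not share this closeness throughout. The share under 1 kb was 31.9% for HPC7-2, 9.71% for HPC7-4, 21.4% for HPC7-5, 32.4% for HPC7-6, 17.6% for HPC7-7 and 11.8% for HPC7-8, on both sides of the 20.1% of OCRs of all 7.

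**Figure D4:**
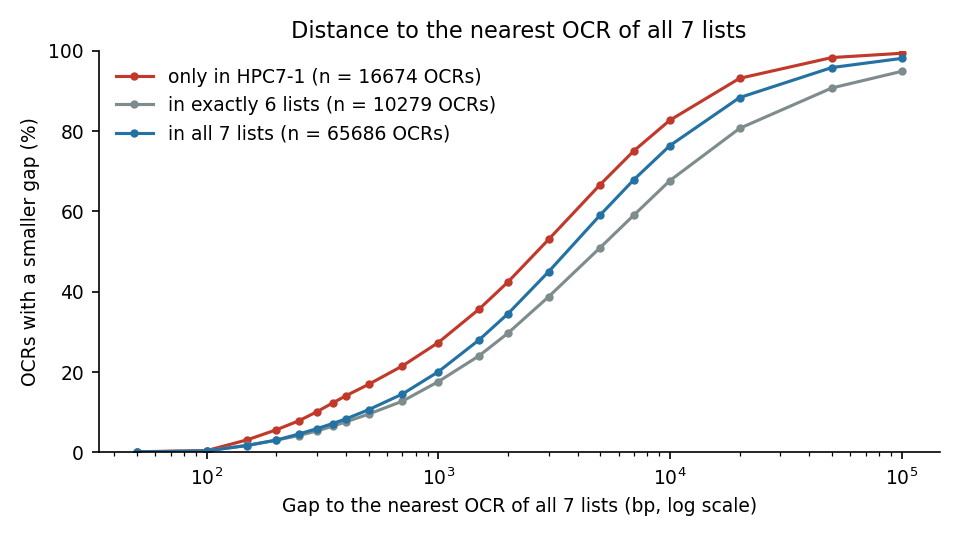
Cumulative percentage of OCRs (y axis) by the gap to the nearest OCR of all 7 lists (x axis, bp, log scale). The curve of OCRs only in HPC7-1 lies above the others, with 27.3% under 1 kb against 17.6% for exactly 6 lists and 20.1% for all 7.

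Along the chromosomes members numbered 6.77 per Mb, from 3.81 on chromosome 3 to 12.7 on chromosome 11. Per 100 OCRs of all 7 lists there were 25.4, from 19.1 on chromosome 13 to 32.2 on chromosome 11. The densest stretch of 100 kb, chr7:135600001-135700000, held 19 members and 17 OCRs of all 7 lists around Ptpre, a tyrosine phosphatase, and Mki67, which encodes the proliferation antigen Ki-67. The next held 16 members on chr8:70400001-70500000, with Crtc1 and Klhl26.

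Because all members came from 1 library, their own comparison with OCRs of all 7 lists was not tested. The same kind of comparison was tested in the other 6 libraries, on OCRs that are not members. There were 281 to 4026 of these per library, with median fold enrichments of 2.91 to 3.35 against 2.43 for members. They too were defined by which peaks were called in the 7 lists. In each of the other 6 libraries the OCRs of that library alone were compared with its own peaks in OCRs of all 7 lists. The 6 differences went into an exact sign-flip permutation test. The 6 comparisons share the set of OCRs of all 7 lists, whose values hardly varied between libraries, so the differences are not independent and their spread is almost wholly that of the OCRs of 1 library alone. The smallest two-sided p of that test is 0.03125, and 13 measures were compared. After Benjamini-Hochberg adjustment none passed 0.05, the lowest adjusted p being 0.0677.

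The sets differed in the same direction in every one of the 6 libraries for 6 measures, CpG density, repeats and the CTCF, ETS, RUNX and GATA motifs, and so in libraries of both peak name prefixes. CpG-dense sequence, with a GC content of at least 50% and at least 0.6 of the CpG expected, is typical of promoters of widely used genes. It was found in 3.76% of the OCRs of HPC7-2 alone, 0.868% for HPC7-4, 1.78% for HPC7-5, 5.54% for HPC7-6, 1.36% for HPC7-7 and 1.24% for HPC7-8, and in 12.8 to 13.4% of their peaks in all 7 lists. No library overlapped the shared range, and the mean difference was −10.7 ± 1.87 percentage points (SD, n = 6, exact sign-flip p = 0.03125, adjusted p = 0.0677). The members had 1.66%, against 14.1% of HPC7-1 peaks in all 7 lists and 1.29% in 6 lists.

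Repeat-masked bases were more frequent in OCRs of 1 library alone. They made up 20.8% for HPC7-2, 25.8% for HPC7-4, 17.0% for HPC7-5, 20.3% for HPC7-6, 22.3% for HPC7-7 and 21.7% for HPC7-8, against 14.3 to 14.5% in all 7 lists. The difference was 6.93 ± 2.90 percentage points (SD, n = 6, exact sign-flip p = 0.03125, adjusted p = 0.0677). In HPC7-1 the values were 22.6% for members, 19.9% for 6 lists and 14.0% for 7.

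The core consensus of CTCF gave the widest gap among the motifs within 100 bases of the summit. It matched in 1.04% of the OCRs of HPC7-2 alone, 2.05% for HPC7-4, 0.712% for HPC7-5, 0.355% for HPC7-6, 2.04% for HPC7-7 and 3.68% for HPC7-8, against 5.94 to 6.20% of peaks in all 7 lists. The difference was −4.44 ± 1.17 percentage points (SD, n = 6, exact sign-flip p = 0.03125, adjusted p = 0.0677). Among the members 127 had a match (0.762%, Wilson 95% interval 0.641 to 0.905%), against 4.91% in 6 lists and 6.31% in all 7. The OCRs of 6 lists were thus nearer to those of all 7 than to the members by this measure.

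**Figure D5:**
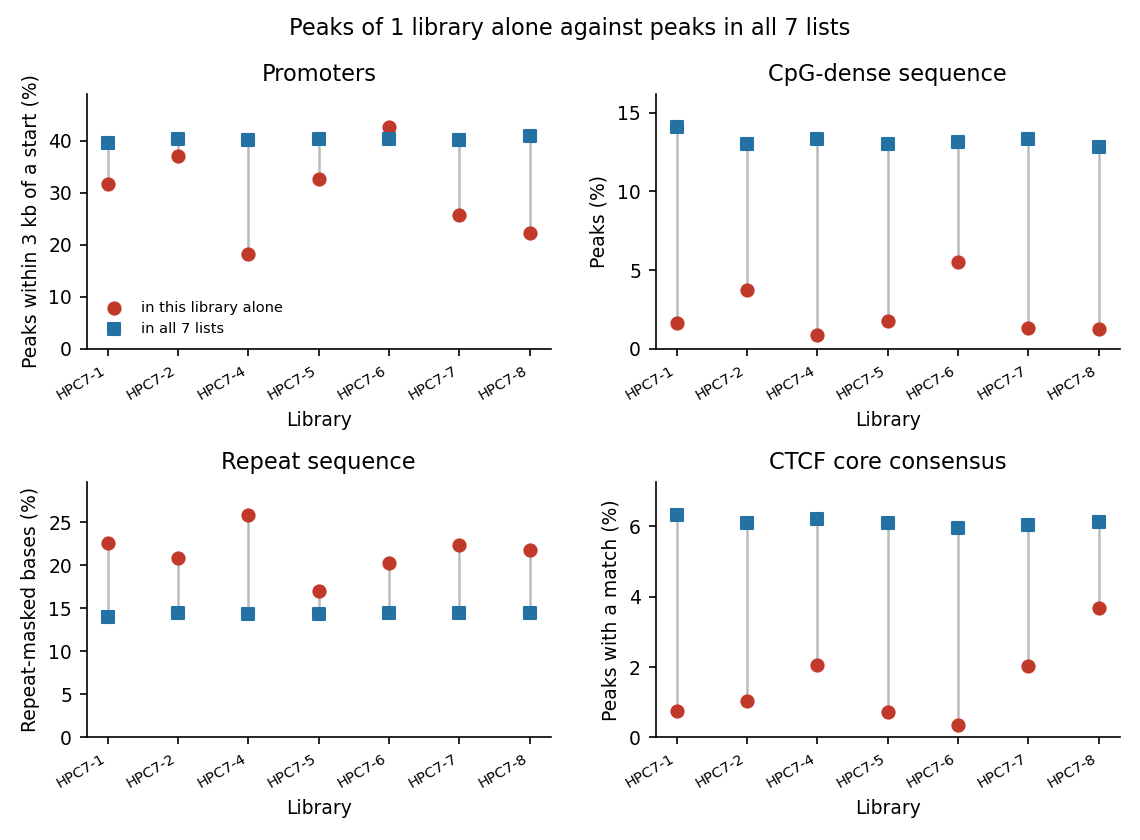
Values of OCRs found in 1 library alone (red circles) and of the same library's peaks in OCRs of all 7 lists (blue squares) for each of the 7 libraries (x axis), as the percentage of peaks in promoters, with CpG-dense sequence or with a CTCF match, or the percentage of repeat-masked bases (y axes). The promoter shares of OCRs of 1 library alone scatter from 18.2 to 42.7% over the other 6 libraries, while CpG-dense sequence, repeats and CTCF differ in the same direction in all 7.

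Motifs of blood transcription factors were searched on both strands within 100 bases of the summit. The ETS motif CCGGAAGT, bound by ETS factors such as GABP, matched 34 members (0.204%), 0.319% of peaks in 6 lists and 1.30% in all 7. In the other 6 libraries the difference was −1.11 ± 0.125 percentage points (SD, exact sign-flip p = 0.03125, adjusted p = 0.0677, lower in 6 of 6). Outside promoters the difference was −0.27 percentage points, lower in 5 of 6 libraries (unadjusted exact sign-flip p = 0.0625).
The RUNX motif TGTGGTT matched 1827 members (11.0%), 12.4% of peaks in 6 lists and 11.8% in all 7, and differed by −2.35 ± 2.49 percentage points in the other libraries (exact sign-flip p = 0.03125, adjusted p = 0.0677, lower in 6 of 6). The 6 differences ran from −6.48 for HPC7-6 to −0.19 for HPC7-4, and without HPC7-6 the mean was −1.52. Outside promoters the mean was −3.91 and over the whole peak −12.7 percentage points.
The GATA motif AGATAAG, bound by GATA factors of progenitors and red cells, matched 618 members (3.71%), 5.22% of peaks in 6 lists and 6.03% in all 7, with a difference of −1.78 ± 1.38 percentage points (exact sign-flip p = 0.03125, adjusted p = 0.0677, lower in 6 of 6). Outside promoters it was −3.03 and over the whole peak −7.82.

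The other 3 motifs gave no common direction within 100 bases of the summit. The AP-1 motif TGANTCA, bound by Fos and Jun, matched 2101 members (12.6%), 11.4% of peaks in 6 lists and 11.2% in all 7. Outside promoters it matched 13.5% of members (Wilson 95% interval 12.9 to 14.1%). There it matched 11.8% (11.1 to 12.5%) in 6 lists and 13.2% (12.9 to 13.5%) in all 7. In the other libraries its share among OCRs of 1 library alone was 6.68% for HPC7-2, 9.08% for HPC7-4, 16.4% for HPC7-5, 5.40% for HPC7-6, 6.87% for HPC7-7 and 8.74% for HPC7-8, below the shared peaks in 5 of 6 libraries (exact sign-flip p = 0.25, adjusted p = 0.271). HPC7-5, with 281 OCRs of its own, was the exception and had the direction of HPC7-1. The E-box CAGCTG matched 15.0% of members, 14.2% of peaks in 6 lists and 14.7% in all 7. In the other libraries the difference was −0.30 ± 1.28 percentage points (exact sign-flip p = 0.594, adjusted p = 0.594). Outside promoters it was −1.79 percentage points, lower in 5 of 6 libraries (unadjusted exact sign-flip p = 0.0625). The NF-Y motif CCAATNNG matched 6.14% of members, 6.83% of peaks in 6 lists and 7.23% in all 7. In the other libraries it differed by −1.41 ± 1.58 percentage points (exact sign-flip p = 0.125, adjusted p = 0.163). Outside promoters the sign turned, with a difference of 0.044 percentage points (unadjusted exact sign-flip p = 0.844). Over the whole peak, which was wider in OCRs of all 7 lists, the differences were −14.1 for AP-1, −19.4 for the E-box and −11.9 percentage points for NF-Y, lower in 6 of 6 libraries each (unadjusted exact sign-flip p = 0.03125, the smallest possible). None of the 7 motifs was found in 9745 members (58.4%), in 55.0% of peaks in 6 lists and in 52.6% in all 7.

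With promoters of 3 kb and all listed peaks, the promoter share did not move in 1 direction. It was 37.2% in OCRs of HPC7-2 alone, 18.2% for HPC7-4, 32.7% for HPC7-5, 42.7% for HPC7-6, 25.7% for HPC7-7 and 22.4% for HPC7-8, against 40.1 to 40.9% of peaks in all 7 lists. The difference was −10.6 ± 9.34 percentage points (SD, n = 6, exact sign-flip p = 0.0625, adjusted p = 0.116), and HPC7-6 lay on the other side. With promoters of 1 kb it was −12.4, and with peaks of a −log10 q of at least 5 it was −14.0 percentage points, lower in 6 of 6 libraries in both cases (unadjusted exact sign-flip p = 0.03125). The gene body share differed by 4.24 ± 4.02 percentage points (exact sign-flip p = 0.09375, adjusted p = 0.152) and the intergenic share by 6.32 ± 7.01 (exact sign-flip p = 0.125, adjusted p = 0.163). The median GC content differed by −1.41 ± 2.34 percentage points (exact sign-flip p = 0.219, adjusted p = 0.259), and members had a median of 49.3%. Outside promoters the GC difference was −0.33 percentage points, lower in 3 of 6 libraries (unadjusted exact sign-flip p = 0.8125). Against OCRs of exactly 6 lists the sign of the promoter difference turned, to 4.13 percentage points in 4 of 6 libraries (unadjusted exact sign-flip p = 0.344), and that of the gene body difference turned to −4.67 in 6 of 6 (unadjusted exact sign-flip p = 0.03125). The intergenic difference was then 0.54 percentage points, higher in 3 of 6 libraries (unadjusted exact sign-flip p = 0.844).

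Members were more frequent at genes whose promoters were open in all 7 libraries. Of 20807 autosomal protein-coding genes, 3519 had a member within 3 kb of a start (16.9%), and 3479 had one in the gene body (16.7%). Among the 13012 genes with a promoter OCR of all 7 lists, 3225 had a promoter member (24.8%), and among the other 7795 genes 294 did (3.77%). A gene body member was found in 3119 of the former (24.0%) and 360 of the latter (4.62%). In gene bodies there were 10.6 members per Mb in the former and 1.28 in the latter, while OCRs of all 7 lists numbered 31.6 and 6.65 per Mb. A gene with 2 or more promoter members was found 797 times.

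The gene lists were read against these shares. Of 31 blood transcription factors, 7 had a promoter member (22.6%) and 10 a gene body member (32.3%), and their gene bodies held 55 members beside 158 OCRs of all 7 lists. Of 20 progenitor receptors, 4 had a promoter member and 7 a gene body member (35.0%), with 19 members beside 49 OCRs of all 7. All 31 factors and 18 of the 20 receptors had a promoter OCR of all 7 lists. Over all genes with such an OCR the gene body share was 24.0%. The 25 neuronal synapse and adhesion genes, which are very long, held 5 gene body members in 24.1 Mb, and 2 had a promoter member. Of 24 lymphoid genes 1 had a promoter member, of 23 mature myeloid and erythroid genes 5, of 20 mast cell and megakaryocyte genes 2, of 25 developmental factors of other tissues 3 and of 20 liver and epithelial genes 1. Gene body members were found at 4 neuronal (16%), 4 lymphoid (16.7%), 2 mature myeloid and erythroid (8.70%) and 4 mast cell and megakaryocyte genes (20%). They were found at 2 of the developmental factors (8%) and 1 of the liver and epithelial genes (5%).
For the lists by symbol, promoter members were found at 14 of 73 cytosolic ribosomal protein genes (19.2%), 50 of 385 zinc finger genes (13.0%), 6 of 1128 olfactory receptors (0.532%), 0 of 329 vomeronasal receptors and 1 of 57 clustered protocadherins. The protocadherin genes overlap each other, so that in gene bodies 3 distinct members counted for 21 genes.
Per 100 OCRs of all 7 lists in their gene bodies, all protein-coding genes held 31.4 members. The value was 34.8 for blood transcription factors, 38.8 for progenitor receptors, 37.5 for mature myeloid and erythroid genes and 54.2 for mast cell and megakaryocyte genes. It was 28.6 for lymphoid genes and 25 for developmental factors of other tissues, from 4 and 2 members. Liver and epithelial genes had 14.3 from 1 member, and neuronal genes had 6.94 from 5. Zinc finger genes had 34.4, from 72 members and 209 OCRs of all 7 lists. Olfactory receptors had 25, from 3 and 12, cytosolic ribosomal protein genes 22.2, from 2 and 9, and vomeronasal receptors 16.7, from 2 and 12. Protocadherins had 150, from 3 members and only 2 OCRs of all 7 lists. Genes with a promoter OCR of all 7 lists had 33.1. The mature myeloid and erythroid value rests on 3 members and 8 OCRs of all 7 lists, and the mast cell and megakaryocyte value on 13 and 24. No list was tested.

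The 11 blood transcription factors and progenitor receptors with a promoter member had a highest fold enrichment of 2.15 to 3.28. Kit, the receptor of stem cell factor, had 4, the strongest with a fold enrichment of 2.34, 1298 bp from a start and shown above. Gata2, a factor of stem and progenitor cells, had 1 with a fold enrichment of 2.57 in an intron, 156 bp from the nearest OCR of all 7 lists. Cebpe, a factor of granulocyte maturation, had the highest fold enrichment of the group, 3.28 (chr14:54708982-54709269), and Il1rl1, the interleukin 33 receptor, had 2.95 (chr1:40439364-40439583). Cxcr4, the receptor that holds progenitors in the marrow, had 2.81 (chr1:128594521-128594914), at 160 bp from an OCR of all 7. Irf8 and Csf2ra had 2.43 each and Tcf3, an E protein, had 2.39 (chr10:80434808-80435062), at 157 bp. Bcl11a and Gfi1b had 2.20 each, and Runx2 had 2.15.

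Taken by protein-coding gene, the promoter members that came next after Slc16a5 had lower values. The Smarca2 member, with its run of T, was also within 3 kb of a start, but not of a protein-coding one. Drd3, a dopamine receptor, had 4.40 over sequence that was repeat-masked throughout (chr16:43764209-43764472). Mdm4, an inhibitor of p53, had 4.21 with 709 bp to the nearest OCR of all 7 lists (chr1:133028550-133028859). Vps54, Zkscan1 and Trim24 had 4.12 each, and Peli1, Ehf, Nasp and Fdx1 had 4.07 each, with widths of 302 to 443 bp. The Zkscan1 member (chr5:138092799-138093241) overlapped an untranslated region of the gene and held a RUNX, an AP-1 and an E-box match. The Peli1 member, near a ubiquitin ligase of innate signalling, had 86 reads and the AP-1 match printed above.

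Gene bodies with the most members were long, and all 10 had a promoter OCR of all 7 lists. Gm20388, a read-through model of 4435 kb on chromosome 8 that spans many other genes, had 140 members beside 330 OCRs of all 7. Gse1 had 22 members in 353 kb and 62 OCRs of all 7, and Ptpre had 19 members in 149 kb and 20 OCRs of all 7. Fgfr2, whose annotated model spans 2961 kb, Foxp1, a forkhead factor of blood cells, Msi2, an RNA-binding protein of stem cells, and Rad51b, a recombination factor, had 18 each. Cux1 and Snd1 had 17 each, and Arid1b, a subunit of the SWI/SNF complex, had 16. Per Mb these came to 6.08 in Fgfr2 and 128 in Ptpre, where members were nearly as many as the OCRs of all 7.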

How the data were processed

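For each library on its own, MACS2 was run by the authors on reads that Cutadapt had trimmed and BWA-mem had placed on mm10; versions and options are not given in the sources used here. Each deposited row holds an interval, its summit, the fold enrichment there (a ratio to the library's background), the −log10 p, the −log10 q and a score, which the authors' caller derives from that −log10 q. No counts or read totals are in the lists, and reads at the summit were computed from the fold enrichments, of which 100% were whole multiples of 1 step (within 0.02 of a step at low values).

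The members and the gene and motif lists were chosen with earlier results of these data known. Genes and 134417 autosomal transcript starts were from GENCODE M21, and sequence and repeat masking from GRCm38, which has the mm10 sequences. Peaks within 3 kb of a start were promoter peaks, and of the rest those that overlapped a gene were gene body peaks. Motifs were searched in 201 bases around the summit. The contrast of OCRs of 1 library alone with OCRs of all 7 lists was tested by an exact sign-flip permutation over 6 libraries (64 patterns, two-sided), with Benjamini-Hochberg adjustment over 13 contrasts. Such p-values come from the signs and sizes of the 6 differences. At the smallest exact sign-flip p, 0.03125, they say only that all 6 differences have the same sign, whatever their spread. Named were the 10 strongest members, the 10 strongest promoter members by gene, the 10 genes with the most gene body members, the 8 highest of the blood transcription factors and progenitor receptors with a promoter member, the 3 members with the fewest reads (ties taken by chromosome name in text order, then position), the widest member and the 3 strongest OCRs of HPC7-1 and 1 other list. Genes of the densest 100 kb stretches are named outside this rule, as are the other 3 of these factors, Bcl11a, Gfi1b and Runx2, after their values were seen. Alternatives were other overlap rules, a −log10 q of at least 5, lists of equal length, a 1 kb promoter, the whole peak, peaks outside promoters, OCRs of 6 lists, and each other library left out, which for the differences was added after the data were seen. Tables were made with numpy 2.4.6, pandas 2.3.3 and scipy 1.17.1 under Python 3.11.15 and figures with matplotlib 3.10.9. Merging, overlap and distance were tested on simulated data, where they gave the same results as bedtools 2.31.1.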

Additional observations from a re-analysis of the deposited data

Results flagged for a closer look

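Over 18 measures of the OCRs found in 1 library alone, 3 placed a library far from the other 6 by the gap to its nearest neighbour, and each time it was HPC7-1. Chance flags about 1 in 20 such groups, but that rate has no bearing here, since these values come from the peak calls that chose the members and are a description. HPC7-1 had 16674 OCRs of its own, against 281 to 4026 in the other libraries, and these were 12.9% of its autosomal OCRs. HPC7-1 also had the highest background, 20.4 reads against 4.44 to 7.45, and its part in these counts was not tested. The highest fold enrichment of an OCR of 1 library alone was 22.1 in HPC7-1, against 4.35 to 6.43 elsewhere, and that OCR is the member in an intron of Slc16a5 with long runs of T.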

How the results depend on the processing

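A total of 125 alternatives were run, and 105 stayed within these limits: a count within 1.5 times the reported one, a share of members within its Wilson interval, a median percentile within 1 point, a difference with the same direction and side of the threshold, or, with 1 library left out, a difference within 1 SD. The side of the threshold was read on the unadjusted exact p, and no contrast passed it after adjustment. Of the 125 alternatives, 84 left 1 library out. For a difference, leaving out 1 of 6 libraries cannot move the mean by 1 SD, so those alternatives could not leave their limit. Fold enrichment, −log10 p and reads rank the peaks of a library alike, so the median percentile could not change either. The count of 105 is therefore no measure of how robust the results are. The number of members was 2022 with lists of equal length and 10045 with no other peak within 1 kb, and between 17169 and 22375 with 1 of the other libraries left out. With a 1 kb promoter the promoter, gene body and intergenic shares of members were 12.3%, 58.3% and 29.4%. For the members with a −log10 q of 5 or more the promoter share was 30.1% and the intergenic share 25.5%, and with no other peak within 1 kb the 3 shares were 26.0%, 46.6% and 27.4%. In the other 6 libraries the promoter difference was −12.4 percentage points with a 1 kb promoter and −14.0 for peaks with a −log10 q of 5 or more, both at the smallest exact p, and the gene body difference was 5.77 with a 1 kb promoter. Against OCRs of exactly 6 lists the promoter difference reversed to 4.13 (exact p = 0.344) and the gene body difference to −4.67 (exact p = 0.03125). The intergenic difference against them was 0.54 (exact sign-flip p = 0.844). In the whole peak, where OCRs of all 7 lists offer more bases, the differences were −14.1 for AP-1, −19.4 for E-box and −11.9 for NF-Y. Outside promoters the ETS difference was −0.27 and no longer at the smallest p, and the NF-Y difference reversed to 0.044. Leaving 1 of the 6 libraries out of each difference was added after the data were seen. No difference changed sign, and 5 libraries allow no exact p under 0.0625. It moved 4 of 13 differences by over 1.5 times: RUNX to −1.52 without HPC7-6, GC content to −0.90 without HPC7-4, AP-1 to −3.41 without HPC7-5 and −1.30 without HPC7-6, and the E-box to between −0.73 without HPC7-2 and −0.021 without HPC7-6. The causes were not tested. The lists give no depth at places without a peak, so a member cannot be told from an OCR that the other libraries held below their threshold.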
